A study of Mus musculus with 94 samples.

Results

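Single haematopoietic stem cells labelled Ski-WT were described on their own, with no comparison of genotypes. The members were the 48 cells titled as Ski-WT SLAM cells, out of 94 single-cell libraries, and the remaining 46 cells, labelled Ski-KO, were not used. Ski encodes a transcriptional co-repressor of TGF-beta signalling, Ski-WT is the wild-type genotype, and the series is about early myelodysplastic syndrome. The cells were of the C57BL/6 strain and derived from fetal liver. They had been transplanted for 6 months before bone marrow was taken from the hindlimbs, so they were stem cells recovered from recipient mice and not from an undisturbed marrow. Marrow was enriched on CD117 beads and sorted for Cd45.2-positive, lineage-negative cells with c-Kit, Sca-1 and Cd150 and without Cd48, a combination known as the SLAM gate. Single cells were then separated and lysed on a Fluidigm C1 chip and their cDNA was sequenced. All 48 cells carry the same label prefix, and no animal, donor or age is named for any of them. They were therefore treated as 1 sample: each spread below is a spread over cells, and no test was made.

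Haematopoietic stem cells sit at the top of blood formation and can rebuild the blood of a transplanted host. In adult marrow most of them rest outside the cell cycle, and stem cell factor, acting on its receptor Kit, helps to maintain them. Their identity is linked to a set of transcription factors that includes Gata2, Lmo2, Fli1, Myb, Meis1 and Hlf.

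Values are TPM, a transcript level scaled for gene length and for the total of each cell, and a gene was counted as detected in a cell at 5 TPM or more. TPM keeps no sequencing depth, so the depth of each cell is unknown, and a gene listed at 0 in a cell may have been missed. A cell held between 1625 and 3750 detected genes, with a median of 2415.5. Of all values above 0, 33.2% lay under 5 TPM. The 10 highest genes of a cell took between 7.54% and 13.8% of its total, with a median of 9.64%. Correlations between pairs of cells over all genes ran from 0.35 to 0.53 (Pearson, 1128 pairs, described without a test), so no cell stood far from the rest and no pair held the same values.

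The transcripts of the gate were found unevenly. Kit, the receptor for stem cell factor, ran from 0.18 TPM through a median of 78.0 to 1323 TPM and was detected in 41 of 48 cells (85.4%, exact 95% binomial interval 72.2% to 93.9%, which covers counting error only). Ptprc, which encodes Cd45, ran from 0 through 42.9 to 1327 TPM and was detected in 34 cells. Ly6a, which encodes Sca-1, ran from 0 through 87.4 to 3958 TPM and was detected in 29 cells (60.4%, interval 45.3% to 74.2%). Kit was thus spread over a continuous range with few cells near 0, while Ly6a held 27 cells at 50 TPM or more and 14 under 1 TPM.

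Procr, the endothelial protein C receptor used as a further stem cell marker, was detected in 16 cells, with a median of 0 and a highest value of 2485 TPM. Slamf1, which encodes the gate marker Cd150, was detected in 7 cells (14.6%, interval 6.07% to 27.8%) and was listed at 0 in 37, although every cell had been sorted for the protein. Cd48, which the gate excludes, was detected in 0 of 48 cells, which by a floor of 3 counts allows a share of up to 6.25%. That limit covers counting error for cells with a detected transcript, and not cells in which a transcript was missed, as it can be for Slamf1. All 4 of Kit, Ly6a, Procr and Slamf1 were detected together in 1 cell, and none of them in 2 cells. The most frequent combination was Kit with Ly6a alone, in 16 cells. Of the 7 genes for excluded surface markers in the table, Tfrc was detected in 2 cells, Itgam and Ly6c1 in 1 each, and the other 4, Cd48 among them, in none.

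**Figure D1:**
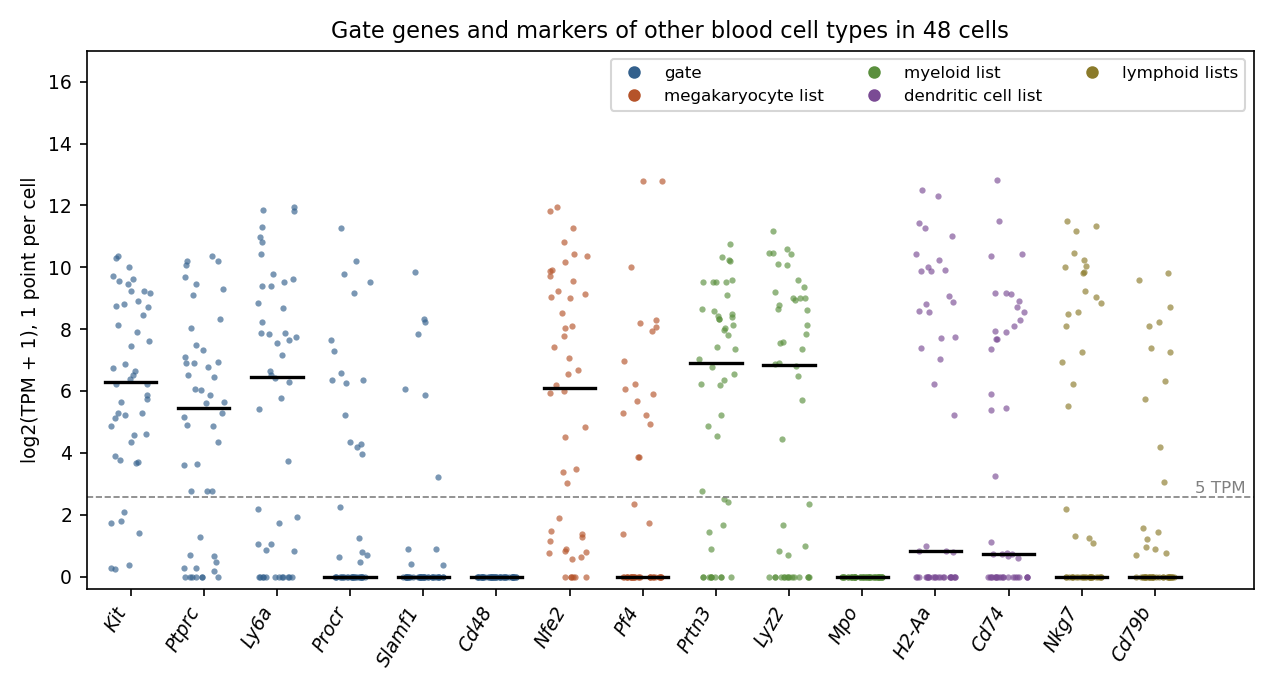
Each point is 1 of the 48 cells, the vertical axis is log2(TPM + 1), black bars are medians and the dashed line marks 5 TPM. Kit covers a continuous range, Slamf1 is detected in 7 cells and Cd48 in none, Mpo is at 0 throughout, and Prtn3, Lyz2, H2-Aa and Nkg7 are high in some cells and near 0 in others.

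Markers of other blood cells were examined for the same cells. In the neutrophil and monocyte list, 3 of 18 genes were detected in 24 or more cells and 9 in none, against 10.6% and 16.5% of all genes, and the summed level of the list ran from 0 through 689 to 3183 TPM. Prtn3, a granule protease, was detected in 33 cells, Lyz2 and Lyz1, the lysozymes, in 28 and 26, and Csf3r, the receptor for granulocyte colony-stimulating factor, in 11. Mpo, Elane and Ctsg, the granule genes that usually define this lineage, were detected in no cell. Prtn3, Lyz1 and Lyz2 were detected together in 18 cells, and 8 cells held none of them.

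The megakaryocyte and platelet list had 14 genes in the table, with a summed level from 1.79 through 1055 to 8662 TPM. Of these genes, 2 (14.3%) were detected in 24 or more cells and 2 in none, near the 10.6% and 16.5% of all genes. Nfe2, a transcription factor of megakaryocytes, was detected in 31 cells. Pf4, which encodes platelet factor 4, was detected in 17 cells, with a median of 0 and a highest value of 7150 TPM. Gp9, Selp and Itga2b followed with 14, 11 and 9 cells, then Itgb3 with 7 and Treml1 and Rab27b with 5 each. Gp1ba was detected in 4 cells, Vwf in 3, Ppbp in 2, and Clec1b and Gp1bb in none. Pf4 was present in 5 of the 7 cells with Slamf1, a pair chosen after its values were seen.

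Of the erythroid list, 1 of 13 genes was detected in 24 or more cells, a share near the 10.6% of all genes. That gene was Car2, carbonic anhydrase 2, detected in all 48 cells with a lowest, median and highest value of 342, 3565 and 9844 TPM. Gfi1b was detected in 14 cells, while Alas2 and Hba-a1 were detected in none. Hbb-b2 and Hbb-bt, detected in 7 cells each, had the same values in every cell, so their reads could not be told apart. All genes of the mast cell and eosinophil lists in the table, 5 in each, were undetected in all 48 cells, and of 9 macrophage genes 7 were undetected, with Spic in 2 cells and Cd68 in 1. In the B lymphoid list only Cd79b was detected, in 11 cells, and in the T and NK list Nkg7, a protein of cytotoxic granules, reached 19 cells and Lck 7, while the other 9 of 11 genes were detected in none. All 8 endothelial genes were detected somewhere, led by Esam in 16 cells, a gene that stem cells also express, and followed by Eng in 10, Tie1 in 7, Robo4 in 6, and Tek and Emcn in 5 each. In the stromal list Runx2 was detected in 14 cells and Lepr in 10, and 3 of 6 genes in none. In the hepatocyte list Trf was detected in 8 cells, and 2 of 5 genes in none. Whether any cell was a doublet was not tested.

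Few genes were present everywhere. Of 13244 genes, 148 (1.12%) were detected in all 48 cells, 1401 (10.6%) in 24 or more cells, and 2184 (16.5%) in none. Of the 148, 72 encode cytosolic ribosomal proteins and 76 encode other products. The list of 90 cytosolic ribosomal protein genes took between 13.7% and 37.7% of the total TPM of a cell, with a median of 21.1%.

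**Figure D2:**
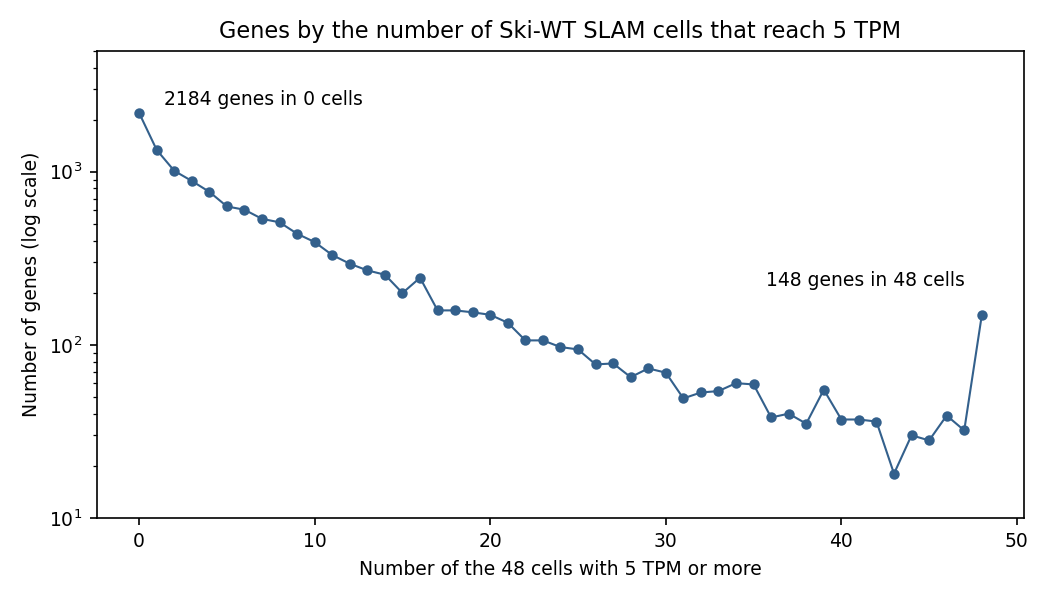
The horizontal axis is the number of the 48 cells in which a gene reached 5 TPM, and the vertical axis, on a log scale, is the number of such genes. The curve falls from 2184 genes detected in 0 cells and rises again to 148 genes detected in 48 cells.

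The gene of highest mean log2(TPM + 1) was Eef1a1, the elongation factor that brings aminoacyl-tRNA to the ribosome, at 13.56 ± 0.41 (mean and SD over 48 cells). Its lowest, median and highest values were 6742, 11671 and 24141 TPM. It had the highest minimum and the lowest SD of these 20 genes, while Actb had the higher median, 11919 TPM. Actb, cytoplasmic actin, followed at 13.50 ± 0.72, and Ubb, a polyubiquitin gene, at 13.38 ± 0.75. Of the other 17 genes, 13 encode ribosomal proteins, led by Rps18 at 13.12 ± 0.57 and Rps19 at 12.77 ± 0.47. The remaining 4 were B2m, the light chain of MHC class I (12.26 ± 0.67), Sod1, the cytosolic superoxide dismutase (12.17 ± 1.15), Hspa8, the constitutive Hsp70 chaperone (12.09 ± 0.81), and Ppia, cyclophilin A (12.08 ± 0.68). Sod1 was the most uneven of the 20, from 517 through 5254 to 18136 TPM. Among the 10 genes with the highest minimum over the 48 cells were Eef1a1, Actb, Rps19, Ubb, Rps18, Rpl32, Rps3a1, Rps14 and Rpl41. Ribosomal protein, actin and ubiquitin genes have many processed copies in the genome, and how reads shared with such copies were divided is not given in the sources used here.

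Among the 76 other genes found in every cell were ferritin genes, Ftl1 with a lowest value of 1079 TPM and Fth1 with 467, which store iron. Ptma, prothymosin alpha, never fell below 1041 TPM, and the nuclear RNA Malat1 never below 646 TPM. Gpx1, the glutathione peroxidase that removes hydrogen peroxide, had a lowest value of 317 TPM. Chromatin and nucleolar genes in this set were Set (lowest 259 TPM), Cbx3, a heterochromatin protein (265 TPM), and Npm1, nucleophosmin (111 TPM). The choice of these 8 was made with their values in view. By the lists, all cells held 6 of 17 actin and thymosin genes and 5 of 61 translation factors, against 1.12% of all genes. They also held 2 of 67 splicing factors, 2 of 74 chaperones and 1 of 76 histones. The counts were 0 of 90 oxidative phosphorylation genes, 0 of 50 proteasome genes and 0 of 77 mitochondrial ribosomal protein genes. Counts of 0 and 1 in these lists lie within about 1 gene of that background.

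Genes that were most uneven for their level were ranked by the SD of log2(TPM + 1) less the median SD of the 200 genes nearest in mean, among genes detected in 12 or more cells. The 20 genes ranked highest lay 0.97 to 2.09 above that median, and the next, Gm15772, at 0.96. The ranking depended on the measure: 13 of the 20 stayed among the 20 highest with the 400 nearest genes and 1 with the squared coefficient of variation of TPM. The largest excess was that of Rps27, a ribosomal protein gene with a median of 1650 TPM that was listed at 0 in 7 cells and lay 2.09 above the 1.90 of its neighbours. Rps27rt, a near copy of it, had an SD of 2.70 against 1.27. When the TPM of both were summed in each cell, the SD was 0.67 and the sum reached 5 TPM in all 48 cells. The split between these copies thus varied from cell to cell while the sum stayed within the SDs of the ribosomal protein genes among the 20 highest.

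Other copies behaved differently when summed. Tgtp2, an interferon-induced GTPase, had an SD of 3.90, and with Tgtp1, a near copy on the same chromosome, the sum still had an SD of 3.34. Eno1, the glycolytic enolase, had an SD of 4.34 and 4.02 after adding Eno1b, so both stayed uneven.

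The other variable genes fell into a few kinds. Stmn1, stathmin, which destabilises microtubules, ran from 0 through 1660 to 7914 TPM, and H2afz, the histone variant H2A.Z, from 0.72 through 1922 to 8308 TPM. Both were high in most cells and near 0 in a few.

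Interferon-induced transmembrane genes were among them: Ifitm1 was detected in 43 cells, with a median of 1080 TPM and 3 cells at 0, and Ifitm3 in 46 cells, with a median of 1605 TPM and 2 cells at 0. Their relative Ifitm2 was detected in all 48 cells. Of the 20 genes of the interferon response list, 4 were detected in 24 or more cells, against 10.6% of all genes, and Isg15 and Mx1, which interferon induces strongly, were detected in none.

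Metabolic genes formed the next kind. Cox6a1, a subunit of cytochrome c oxidase, was detected in 39 cells and listed at 0 in 7. Slc25a5, the mitochondrial ADP/ATP carrier, was detected in 46 cells and ran from 0.77 to 6318 TPM. Ldha, lactate dehydrogenase A, was detected in 40 cells with a median of 691 TPM. The 20 also held Kars, the lysyl-tRNA synthetase (34 cells), Tagap1 (40), Tmem176b (42), the septin Sept2 (46), Poldip3 (37), Capns1, the calpain small subunit (33), and H2-Aa, described below. Above a mean of about 10 the 200 nearest genes are nearly the same for every gene, so Slc25a5, Sept2, Ifitm3 and Rps27rt were all set against nearly the same 200 genes.

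**Figure D3:**
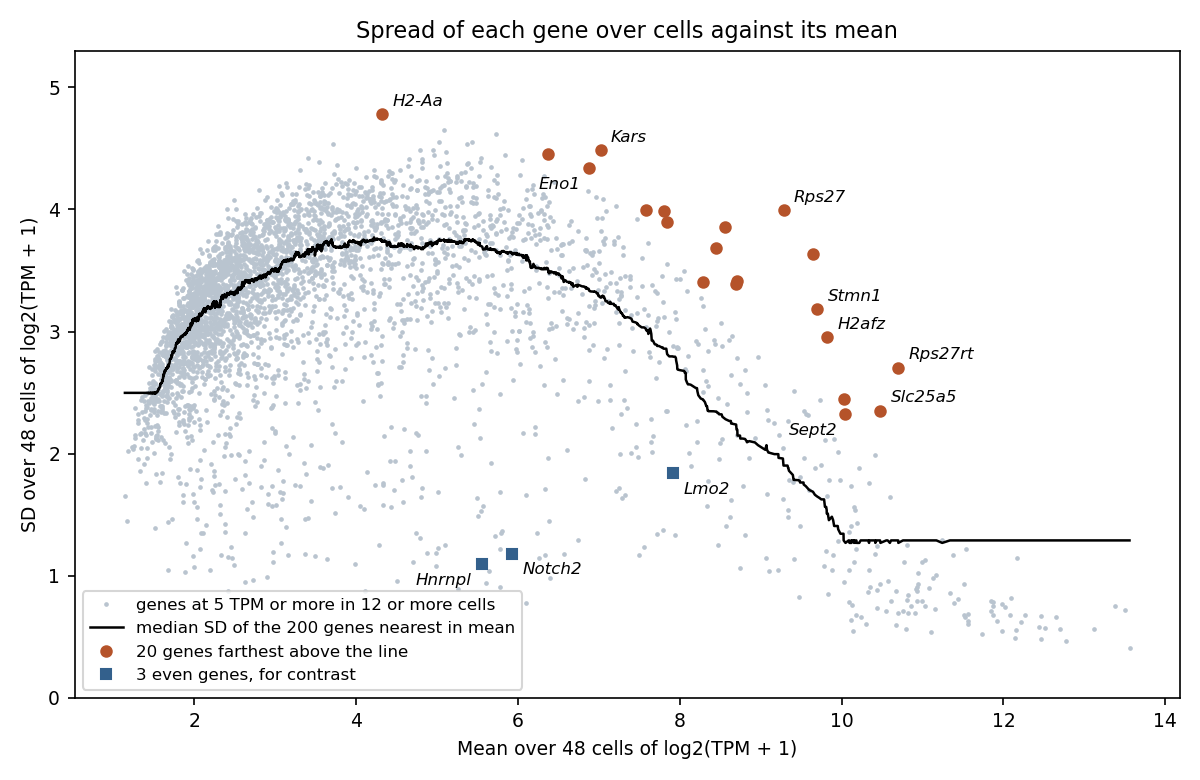
Each grey point is a gene detected in 12 or more cells, with the mean over 48 cells of log2(TPM + 1) on the horizontal axis and its SD on the vertical axis. The black line is the median SD of the 200 genes nearest in mean, the 20 orange points lie 0.97 to 2.09 above it, and Notch2, Hnrnpl and Lmo2, which are even for their level, lie below it.

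Genes far below the line were as distinct. Hnrnpl and Notch2 were chosen with their values in view, and others, such as Myh9 (SD 0.77 against 3.61), lay farther below. Hnrnpl, a splicing regulator, ran only from 5.47 through 51.6 to 216 TPM (SD 1.10 against 3.70 for its neighbours). Notch2 ran from 6.12 through 77.7 to 267 TPM (SD 1.18 against 3.64). Hnrnpl and Notch2 were detected in every cell at a level where most genes were missed in many cells. Their lowest values lay just above the limit of 5 TPM.

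On/off genes were defined as those with 12 or more cells at 50 TPM or more, 12 or more cells under 1 TPM, and at most 2 cells between. Of 1509 genes with enough cells on each side, 116 (7.69%) met the rule, against a median of 7 cells between over all 1509. No cell lay between for 5 genes, 1 cell for 37 and 2 cells for 74, and a further 140 genes with 3 cells between fell just outside. The count depended on the limits: it was 516 with 20 TPM as the upper limit and 19 with 100 TPM, 379 with 5 TPM as the lower limit and 25 when only 0 counted as off. It was 282 among the 34 cells left without those that held 9 or more DNA replication genes. There the least number of cells on each side was lowered in proportion to the cells left.

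The 5 genes with no cell between were Gm15772, Pdp2, Mtfr1, Ppic and Chchd5. Pdp2, a phosphatase that activates pyruvate dehydrogenase, was at 50 TPM or more in 22 cells, with a median of 389 TPM there, and under 1 TPM in 26. Ppic, cyclophilin C, was at 50 TPM or more in 18 cells (median 194 TPM) and listed at 0 in the other 30. Mtfr1, a regulator of mitochondrial fission, and Chchd5, a mitochondrial protein, were on in 12 cells each, with medians of 258 and 191 TPM. Gm15772 was on in 30 cells and off in 18, but RefSeq lists it as a transcribed pseudogene with Rpl26 among its synonyms. Rpl26 itself was detected in all 48 cells, from 51.5 through 1979 to 6755 TPM, with an SD of 1.25, and the SD of the sum of both was 0.90.

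Several of the next genes belong to machinery that all cells use. Psmc2, an ATPase of the proteasome cap, was at 50 TPM or more in 28 cells and under 1 TPM in 19. Polr2g, a subunit of RNA polymerase II, was on in 30 cells and off in 17, Med1, a subunit of the Mediator complex, in 34 and 13, and Spcs3, a subunit of the signal peptidase, in 25 and 22. Mrpl44 of the mitochondrial ribosome was on in 15 cells and off in 32. A transcript listed at 0 for such genes does not show that the cell lacked it.

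The others among the 20 included enzymes of intermediary metabolism, Eno1 (on in 35 cells, off in 12), and Fbp1, the gluconeogenic fructose bisphosphatase (13 and 34). Msra, which repairs oxidised methionine, was on in 18 cells and off in 29. Ado, the cysteamine dioxygenase, was on in 24 and off in 23. Twf1, an actin-binding protein, was on in 29 and off in 18, Ube2h, a ubiquitin-conjugating enzyme, in 20 and 27, Tmed3, a cargo receptor of the secretory pathway, in 16 and 31, and Wrb in 12 and 35. On levels had a median of 279 TPM over the 116 genes, close to the 257 TPM over all 1509.

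**Figure D4:**
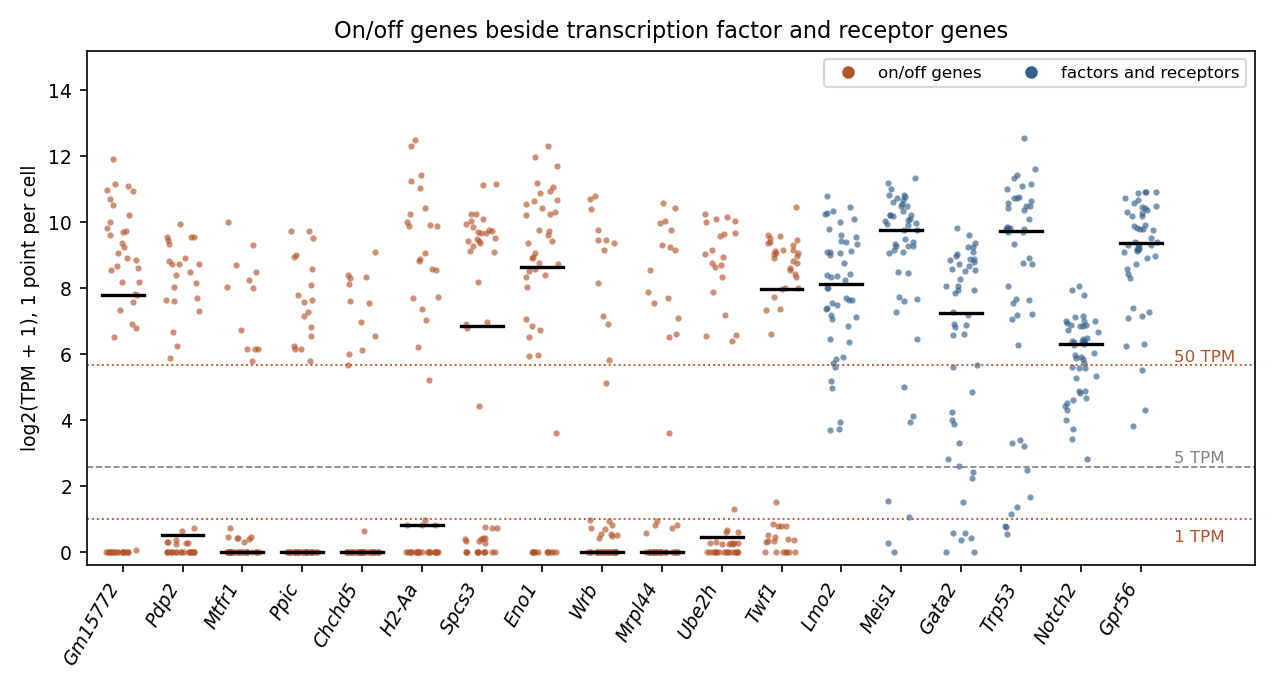
Each point is 1 of 48 cells on the log2(TPM + 1) scale, black bars are medians, dotted lines mark 1 and 50 TPM and the dashed line 5 TPM. The 12 on/off genes leave the zone between the dotted lines empty or with 1 cell, while 17 cells of Notch2 lie there and no cell of Lmo2 or Notch2 is under 1 TPM.

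H2-Aa was the gene that was among the 20 most variable and the on/off genes and also marks another cell type. It encodes the alpha chain of the MHC class II molecule I-A, which presents antigen on dendritic cells and B cells. It was at 50 TPM or more in 21 cells, with a median of 939 TPM there, the highest on level of all 116 on/off genes, and under 1 TPM in 26 cells. Cd74, the invariant chain that guides class II molecules through the cell, was detected in 21 cells, H2-Ab1, the beta chain of I-A, in 18, and H2-Eb1, the beta chain of I-E, in 9. At least 1 of the 4 genes was detected in 33 cells, all 4 in 2 cells and none in 15. H2-Aa and Cd74 were found together in 16 cells (phi 0.54), and H2-Aa was present in 8 of the 9 cells with H2-Eb1. H2-Aa and H2-Ab1, whose proteins pair, were together in 11 cells (phi 0.24). The pairs without H2-Aa were lower: Cd74 with H2-Eb1 had 0.22, Cd74 with H2-Ab1 0.10 and H2-Ab1 with H2-Eb1 0.07. All these pairs were chosen after their values were seen. The summed level of the dendritic cell list ran from 0 through 317 to 20734 TPM. Its other defining genes were scarce, with Flt3 in 5 cells and Siglech, Itgax and Xcr1 in none, and the part of another cell type in these values was not tested.

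Promoters of class II genes carry a shared upstream module whose last element, the Y box, is an inverted CCAAT sequence bound by NF-Y, and the core searched here was CTGATTGG on both strands. Promoters of 2 of the 3 H2 genes were found in the RefSeq table of GRCm38.p6, and both held the core, as did 4.10% of all 32851 promoters of the same length (250 bases before to 50 after a gene's start). They are shown because H2-Aa and H2-Eb1 were detected together in nearly all cells with H2-Eb1, a pair chosen after its values were seen. The stretches run 5′ to 3′ on the strand of the gene, with the core in capitals. The H2-Aa stretch is chr17:34287824-34287930 on the minus strand, with the core starting 51 bases before the gene, at position -51, and the H2-Eb1 stretch is chr17:34305749-34305866 on the plus strand, with the core at position -62.
H2-Aa: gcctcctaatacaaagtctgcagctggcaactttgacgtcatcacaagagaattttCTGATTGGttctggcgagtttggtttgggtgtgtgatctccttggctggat
H2-Eb1: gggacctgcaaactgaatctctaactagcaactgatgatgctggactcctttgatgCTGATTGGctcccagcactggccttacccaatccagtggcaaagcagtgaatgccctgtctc

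Co-detection was described by phi, the correlation of detection over 48 cells, for 3091 genes detected in 12 to 36 cells. Over their 4775595 pairs the median phi was 0.03, 0.1% of pairs lay above 0.48, 0.1% lay below -0.41, and 240 pairs reached 0.6. The cells share their library chemistry and differ in the number of detected genes, which moves all genes together. The 20 pairs of highest phi were of 3 kinds: neighbouring genes or pairs with a pseudogene, pairs of DNA replication genes, and pairs with no shared role known here.

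For the first kind, whether reads were shared between the members of a pair was not tested. Plp2 and Prickle3, adjacent genes, had 0.79 and were together in 23 cells, and the adjacent lysozyme genes Lyz1 and Lyz2 had 0.75 and were together in 24 cells. Dynlt1c and Dynlt1f, dynein light chain copies 2 genes apart, had 0.70. Glrx3 with Gm12669 (0.74) and Hnrnpa3 with Gm6793 (0.71) each paired a gene with a transcribed pseudogene.

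DNA replication genes made up the second kind. Mcm5, a subunit of the replicative helicase, was detected in 13 cells. It shared 11 of them with each of Lig1, the DNA ligase that joins Okazaki fragments, Prim1, the primase, and Uhrf1, which keeps DNA methylation through replication (phi 0.74 in each case). Lig1 with Uhrf1 and Mcm4 with Uhrf1 had a phi of 0.70 and also shared 11 cells. Prim1 shared 10 cells with Rfwd3, a ubiquitin ligase of the replication stress response (0.69). Over all 66 pairs of the 12 replication genes detected in 12 to 36 cells, the median phi was 0.43, with a lowest value of 0.12, against 0.03 over all pairs. The next highest list median was 0.24, over the 3 pairs of the dendritic cell list, H2-Aa, H2-Ab1 and Cd74. Oxidative phosphorylation had 0.11 over 1176 pairs, the haematopoietic core factors 0.03 over 105 pairs and the adult stem cell genes 0.03 over 66 pairs.

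Promoters of replication genes often carry sites for E2F factors, which switch on genes at the start of DNA synthesis. Searched on both strands, TTTGGCGC was found in the promoters of 5 of the 18 replication genes in the RefSeq table and TTTCCCGC in 4, and 8 genes held either. Of all 27025 genes with a promoter there, 0.585% held the first, 1.24% the second and 1.80% either. Neither element was found in the promoters of Prim1 and Uhrf1, which paired with Mcm5, or of Pcna and Tyms. No promoter of Mcm4 was found there. Whether the elements bear on co-detection was not tested. The stretches of Mcm5, which led the pairs, and Mcm6, detected in 20 cells, are shown as examples with the element in capitals. Mcm5 (chr8:75109304-75109423, plus strand) holds it as the reverse complement, starting at position -149, and Mcm6 (chr1:128359752-128359871, minus strand) in the forward direction at position -110, in GRCm38.p6.
Mcm5: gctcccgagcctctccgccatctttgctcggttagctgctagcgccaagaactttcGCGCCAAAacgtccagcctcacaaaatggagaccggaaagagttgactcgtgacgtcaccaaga
Mcm6: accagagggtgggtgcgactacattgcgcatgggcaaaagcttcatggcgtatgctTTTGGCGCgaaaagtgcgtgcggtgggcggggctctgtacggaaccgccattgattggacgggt

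The third kind joined genes on different chromosomes in RefSeq. Dcdc2c and Gm7102 had the highest phi of all, 0.96, with 23 cells holding both and 1 cell holding Dcdc2c alone. The Pearson correlation of their log2(TPM + 1) was also 0.96, and whether they shared reads was not tested. Copb2, a coat protein of Golgi vesicles, and the nuclear export factor Cse1l had a phi of 0.76, with all 14 Cse1l cells among the 20 Copb2 cells. The adhesion receptor Cd44 and Dtd2 had 0.74, with all 16 Dtd2 cells among the 23 Cd44 cells. Appl1 with Nudt19, Mcmdc2 with Tnfrsf10b, Lamtor1 with Ncapd3, Ankrd12 with Asnsd1, the erythroid and megakaryocyte repressor Gfi1b with Nabp2, and the co-repressor Sin3a with the Hippo kinase Stk3 lay between 0.69 and 0.73. The pair of lowest phi was Arhgap15 and Fhl3 (-0.68, together in 6 of the 46 cells with either). It was followed by Smarce1 and Tmbim1 (-0.66), Gid8 and Rassf2 (-0.64), Ccdc59 and Olfr856-ps1 (-0.63), and Arl14ep and Ptk2b (-0.63). The highest and lowest phi values are the extremes of 4775595 pairs over cells that share their chemistry, and are given as a description. Whether these pairs departed from independent detection was not tested. Which pairs ranked highest depended on the measure: 13 of the 20 stayed among the 20 highest when the number of detected genes was regressed out, 10 without the 5 cells with the fewest detected genes, 5 with 1 or 20 TPM as the detection limit, and 5 without the cells rich in replication genes.

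Cell cycle genes were counted cell by cell. Of 21 replication genes a cell held from 0 to 19, with a median of 4. Tyms, thymidylate synthase, was detected in 42 cells and Pcna, the sliding clamp, in 29. These were the only 2 of the list in 24 or more cells (9.52%, near the 10.6% of all genes). There were 29 cells with 5 or fewer, 5 cells with 6 to 8, and 14 with 9 or more, and the counts ran through the middle range without a break. Of 20 mitosis genes a cell held from 0 to 20, with a median of 1. None was detected in 24 or more cells, where 10.6% of all genes were. There were 20 cells with no mitosis gene, 41 with 3 or fewer and 7 with 6 or more. Cks2, a Cdk-binding subunit, led with 17 cells, followed by Top2a, topoisomerase II alpha, with 13 and Cdk1 with 9, and Mki67, the Ki-67 proliferation marker, was detected in 7.

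The replication and mitosis counts marked partly different cells. In 2 cells all 20 mitosis genes were detected together with 3 and 4 replication genes, while 5 cells held 6 or more mitosis and 9 or more replication genes and 9 held only the latter. Both counts went with the total number of detected genes (Pearson 0.64 for replication and 0.70 for mitosis over the 48 cells, given as a description). Among genes of quiescence and of the G1 phase, the D-type cyclin Ccnd2 was detected in 40 cells, the kinase inhibitor Cdkn1b (p27) in 31 and Cdkn1c (p57) in 9.

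**Figure D5:**
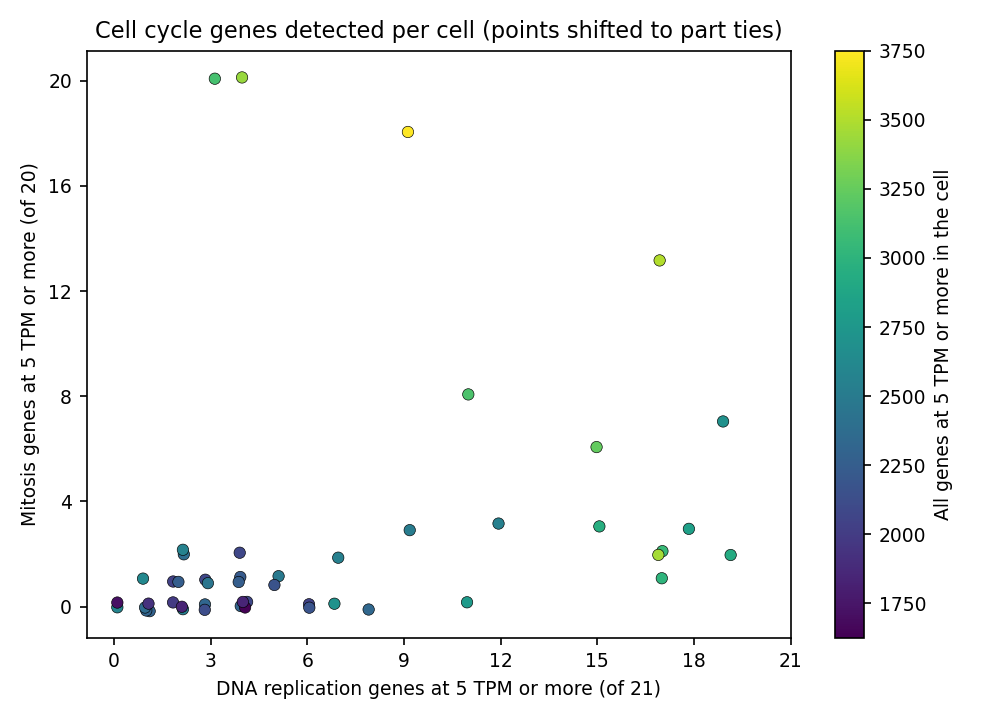
Each point is 1 of 48 cells, with the number of the 21 DNA replication genes at 5 TPM or more on the horizontal axis, the number of the 20 mitosis genes on the vertical axis, and the number of all detected genes as colour. Most cells lie near the origin, 14 cells hold 9 or more replication genes, and the 2 cells with all 20 mitosis genes hold 3 and 4 replication genes.

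Transcription factors were examined by family. Of 191 factors in the table, 31 (16.2%) were detected in 24 or more cells, against 10.6% of all genes, 2 in all cells and 14 in no cell. None of the 28 with enough cells on each side met the on/off rule, against 7.69% of all such genes.

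Of the haematopoietic core factors, 10 of 30 (33.3%) were detected in 24 or more cells, against 10.6% of all genes. Lmo2, the LIM protein that bridges the Tal1 and Gata factors, was found in all 48 cells, from 11.9 through 279 to 1784 TPM. The ETS factor Fli1 was detected in 44 cells (median 228 TPM), Myb in 40 (81.3 TPM), Gata2 in 39 (150 TPM), Hlf in 35 (54.3 TPM) and Myc in 30 (67.6 TPM). The most uneven were Gfi1b, detected in 14 cells, and Zbtb20, in 12. Lower counts, picked after the values were seen, were those of Runx1 in 24 cells, Tal1 in 17, Erg in 7 and Gata1, the erythroid and megakaryocyte factor, in 5.

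Among homeobox factors Meis1, a partner of Hox proteins, stood out at 44 cells, with a lowest, median and highest value of 0, 867 and 2608 TPM. Its SD exceeded that of its neighbours in mean by 0.66, with 41 cells at 50 TPM or more and 2 under 1 TPM. Cux1 was detected in 35 cells and Hoxa9 in 23. Hox genes of the B cluster in the list were found in at most 5 cells. Of the ETS factors, Elf1 (35 cells) and Etv6 (34 cells), which stem cells need in adult marrow, led, and Spi1, which encodes the myeloid and B cell factor PU.1, was detected in 3.

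The lymphoid and myeloid factors held 6 of 37 (16.2%) in 24 or more cells, beside 10.6% of all genes. They were the forkhead factor Foxp1 (35 cells), Irf2, which dampens interferon signalling (34), Nfe2 and Mef2c (31 each), Tcf4 (30) and Nfe2l2, the oxidative stress factor Nrf2 (26). Nfe2 and Irf1, the latter in 13 cells, were the most uneven of them. Cebpa, the granulocyte and monocyte factor, and Cebpe, Tcf7 and Lef1 were detected in no cell.

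Immediate early genes rise quickly after a stimulus or handling. Of 24 in the table, 5 (20.8%) were detected in 24 or more cells, against 10.6% of all genes, and 4 in none, near the 16.5% of all genes. Jun was detected in 45 cells (median 131 TPM), Egr1 in 41 (353 TPM), Fos in 38 (382 TPM), Ier2 in 33 and Fosb in 24. Fos and Btg2, the latter in 17 cells, were the most uneven of the list. Fos reached 4126 TPM and Egr1 2952 TPM, while Jun was even for its level, with an SD of 1.97 against 3.52 for its neighbours. Fos and Egr1 were found together in 37 cells and both missing in 6 (phi 0.66), a pair chosen after its values were seen. Time on the chip or in sorting is not given per cell, and its part in these values was not tested.

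The signal-driven factors detected most widely were Notch2 and Trp53, which differed in their spread. Notch2, a receptor that works as a co-activator after cleavage, was detected in every cell at a steady level, as given above. Trp53, the p53 tumour suppressor gene, ran from 0.46 through 852 to 6017 TPM over all 48 cells and was detected in 41, with an SD of 3.50 against 2.68 for its neighbours. Ctnnb1 (beta-catenin) was detected in 27 cells and Tcf7l2 in 25. The Smad genes of TGF-beta signalling in the list were each detected in at most 9 cells, Smad5 leading, and Ski itself in 6 cells, with a median of 0. Of the 14 nuclear receptors and the 22 cell cycle and growth factors, none was detected in 24 or more cells, where 10.6% of all genes were. For lists this short that background is itself only a few genes. The glucocorticoid receptor Nr3c1 (14 cells) and Sp3 (23 cells) led these lists.

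Of 159 surface proteins in the table, 30 (18.9%) were found in 24 or more cells, against 10.6% of all genes. In all cells there were 6, against 1.12% of all genes, and 30 (18.9%) were found in none, near the 16.5% of all genes. None of the 21 with enough cells on each side was an on/off gene, against 7.69% of all such genes. Of 37 cytokine and growth factor receptors, 5 (13.5%) were detected in 24 or more cells, near the 10.6% of all genes. Kit was found in 41 cells, as given above, Ifngr1, a chain of the interferon gamma receptor, in 27, Il2rg, the common gamma chain, in 25 and Ifnar1 in 24. Il2rg was the most uneven of the receptors, with 23 cells at 50 TPM or more, 20 under 1 TPM and a highest value of 2732 TPM. Of all 37, 10 were detected in no cell, beside 16.5% of all genes.

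The G protein-coupled receptor Gpr56 was detected in all 48 cells, from 13.2 through 662 to 1944 TPM. No other receptor of its list reached 24 cells, with Lpar6 in 21, F2r, a thrombin receptor, in 20, and Gpr171 in 18. Cxcr4, the receptor for the niche chemokine Cxcl12, was detected in 12 cells. Of 17 TGF-beta family and Notch receptors only Notch2 reached 24 cells. The shares of these 2 lists, 5.56% and 5.88%, lay within about 1 gene of the 10.6% of all genes. Tgfbr3 was found in 14 cells, Bmpr2 in 13, Tgfbr2 in 2 and Tgfbr1 in 1.

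Of 27 tetraspanins and stem cell surface proteins, 9 (33.3%) were detected in 24 or more cells, against 10.6% of all genes. A further 4 were detected in none, near the 16.5% of all genes. Ly6e, a relative of Sca-1, was detected in 46 cells with a median of 818 TPM, which is above that of Ly6a (87.4 TPM). Cd63 was detected in 45 cells (median 856 TPM), Cd81 in 44 (521 TPM), Tspan32 in 36 (107 TPM), and Cd24a and Cd9 in 33 each. Cd34, often low on long-term mouse stem cells, was detected in 30 cells with a median of 7.98 TPM. Cd34 and Slamf1 shared 2 cells of the 35 with either (phi -0.29), a pair chosen after its values were seen. Slamf1 was detected in only 7 cells, so this overlap rests on few cells, and whether it departed from independent detection was not tested. Adhesion molecules were led by Cd47, the signal that protects a cell from being engulfed, in 39 cells (median 314 TPM). Cd164, Selplg and Cd93 were each detected in 26 or 27 cells.

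MHC class I genes ranged from part of the cells to all of them. B2m, H2-D1, H2-K1 and H2-T23 were detected in all 48 cells, with medians of 4945, 2002, 1364 and 403 TPM, H2-Q7 in 41 cells and H2-Q6 in 18. H2-D1 was still uneven, with a lowest value of 8.68 TPM and a highest of 7133 TPM. These heavy chain genes are close copies of each other, so reads may have been divided between them. Laptm5, a lysosomal protein of blood cells, was detected in 43 cells and Ptprcap, a Cd45 partner, in 42.

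Genes described for adult long-term stem cells were detected in part. Of 29 in the table, 9 were found in 24 or more cells, where 10.6% of all genes were, among them Angpt1, the ligand of Tek, in 43 cells (median 203 TPM) and Pdzk1ip1 in 38 (290 TPM). Mecom, a factor of self-renewal, was detected in 18 cells, Vwf in 3, and Fgd5 and Hoxb5 in 1 and 3. Of 7 genes of fetal stem cells in the table, Lin28a and Igf2bp3 were detected in no cell, Hmga2 in 2 and Mllt3, which adult stem cells share, in 22. The imprinted list had 2 of 11 genes in 24 or more cells, Impact in 37 and Gnas in 34, a share within about 1 gene of that background.

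Genes most like Kit and Ly6a were sought among 3626 genes detected in 12 or more cells, by the Pearson correlation of log2(TPM + 1) over 48 cells. Kit was followed by Ggps1 (0.48), Clcc1 (0.43) and Psmd12 (0.43), and among the 3 genes most like Ly6a were Wdr12 (0.42) and Tmem181a (0.41). The correlation of Kit with Ly6a was -0.06. The values for named genes are among the highest of 3626 over cells that share their chemistry, and are given as a description. Those given for Ly6a do not include its highest.

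Energy and protein turnover genes were widely but not evenly found. Of 90 oxidative phosphorylation genes, 67 (74.4%) were detected in 24 or more cells, and together they took a median of 2.82% of the total TPM (from 1.63% to 4.95%). Of 19 glycolysis genes, 10 reached 24 cells, led by Gapdh in 46 (median 1358 TPM), Pkm in 45 (753 TPM) and Aldoa in 43. Of 50 proteasome genes, 24 reached 24 cells, and of 77 mitochondrial ribosomal protein genes, 17 (22.1%), against 87 of 90 for the cytosolic ribosome. Over all genes the share was 10.6%, below that of each of these lists. The on/off genes included 5 of 42 mitochondrial ribosomal protein genes with enough cells on each side, 3 of 34 oxidative phosphorylation genes and 2 of 26 proteasome genes, beside 7.69% over all such genes.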

How the data were processed

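The labels' protocols describe capture on the Fluidigm C1 system, SMARTer cDNA synthesis, Nextera XT libraries and paired-end sequencing, with no molecular identifiers. The submitters' processing notes name Bowtie2, RSEM and mm9, without versions or roles. The deposited values are log2(TPM + 1), read from the values themselves: back-transformed, each of the 48 cells summed to between 997668 and 999991 TPM. The authors' gene annotation is not given in the sources used here. TPM keeps no depth, so no count test was possible, and no floor was computed from reads.

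Cells were grouped by title. No cell was left out, no doublet caller was run, and a gene was called detected at 5 TPM or more. Values were described by counts, medians and SDs over cells. Exact Clopper-Pearson intervals at 95% cover counting error only. Genes with identical values (20 genes) were counted once in pairs. Phi was computed on detection, SD excess against the 200 genes nearest in mean. Genes named were the 20 highest by mean, the 20 of largest SD excess, the 20 on/off genes with the fewest cells between 1 and 50 TPM, the 20 pairs of highest and 5 of lowest phi, gate genes, markers of other cell types detected in 5 or more cells, and in each list of factors or surface proteins up to 6 detected in 24 or more cells, by mean, and the 2 of largest SD excess. Further genes were chosen after their values were seen. The members, lists and rules were chosen with earlier results of these data known. Of the symbols, 12418 were found in the RefSeq table of GRCm38.p6, used for neighbours and promoters and not for coordinates of the expression values. The scripts were tested on simulated data. Computation was in Python (3.11.15) with pandas (2.3.3), numpy (2.4.6) and scipy (1.17.1), and figures were drawn with matplotlib (3.10.9). Some genes that these rules select are not reported here.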

Additional observations from a re-analysis of the deposited data

How the results depend on the processing

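Of 42 values under other settings, 25 stayed within 1.5 times the value given or, for the median of genes per cell, within 1 SD over cells (495 genes). Counting any value above 0 as detection gave 264 genes in all cells, 2748 in 24 or more cells and a median of 3670.5 genes per cell, and 1 TPM gave a median of 2946.5. The on/off count was 516 and 19 with 20 and 100 TPM as the upper limit, 379 with 5 TPM as the lower limit and 25 with only 0 as off. Without the 14 cells holding 9 or more replication genes, a setting chosen after seeing the data, it was 282. The limit of 2 cells between was kept, and fewer cells meet it more easily. The least number of cells on each side was lowered in proportion to the cells left. Of the 20 most variable genes, 13 stayed with a window of 400 genes and 1 with the squared coefficient of variation of TPM. Of the 20 pairs, 10 stayed without the 5 cells with the fewest genes, 5 without the replication-rich cells, 11 under Pearson correlation, 5 at 1 TPM, 5 at 20 TPM and 13 with detected genes regressed out. Apart from what a setting does by construction, the causes were not tested. Among the 20 highest genes, 17 to 20 stayed under the settings run. No paired analysis was possible because the values come from 1 sample and no test. All values describe 1 sample from an unstated number of mice, and dropout cannot be told apart from absence.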

Other observations

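Xist, the RNA of the inactive X chromosome, was above 0 in 1 of 48 cells, at 0.04 TPM. Of 4 Y-linked genes, at least 1 was above 0 in 42 cells and at 5 TPM or more in 30, led by Ddx3y in 16 cells. Nkg7, a gene of cytotoxic lymphocytes, was found in all 8 cells in which Cdc6, a replication licensing factor, was detected and in 10 of the 14 cells with Prim1, pairs picked after their values were seen and given as values only.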
